A study of Mus musculus with 2 samples.

Results

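Saa3-low classical monocytes were the barcodes in which transcripts of circulating inflammatory monocytes were present while Saa3, an acute-phase gene, stayed low. They were chosen by measured values: a barcode with at least 200 genes and at most 5% mitochondrial UMIs (unique molecular identifiers, 1 per captured transcript) was a member when it met 9 criteria on shares of its own UMIs. The criteria were Saa3 below 0.5%, Ccr2, Fn1, F13a1 and Ly6c2 together at least 0.05%, S100a8 and S100a9 together below 5%, azurophil granule genes (Elane, Mpo, Prtn3, Ctsg) below 1%, cell cycle genes (Mki67, Top2a, Birc5, Ube2c) below 0.04%, C1q genes below 0.05%, MHC class II genes (H2-Aa, H2-Ab1, H2-Eb1, Cd74) below 1.5%, interferon genes (Isg15, Ifit3, Irf7, Rsad2) below 0.1%, and nonclassical genes (Ace, Treml4, Eno3, Adgre4) below 0.04%. In all, 922 of 4887 kept barcodes were members, 695 of 2835 in the control group and 227 of 2052 in the group with orthodontic tooth movement (OTM). What the 9 criteria used is given here as a description only.

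Both groups were 8-week-old male C57/B6 J mice, and neither carried an allele or drug that the labels or methods name. In the OTM group a nickel-titanium coil spring pulled the left upper first molar toward the incisors for 7 days, and the control mice carried no spring. Cells were freed from the alveolar bone around the molar with collagenase, sorted for F4/80 and CD11b, 2 surface proteins shared by monocytes and macrophages, and sequenced in droplets from the 3′ end of transcripts. Each group was 1 library, with 14493851 UMIs in the kept barcodes of control and 16472699 in OTM. The study gives a total of mice for both groups, but the number pooled in each library was not given in the sources used here, and no spread between animals could be measured. No value below is a test: ratios carry exact binomial intervals and shares Clopper-Pearson intervals, all at 95%, and both cover counting error only.

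Classical monocytes leave the bone marrow through the receptor Ccr2, travel in blood with Ly6C on their surface, and enter injured or loaded tissue, where they can become macrophages, dendritic-like cells or, in bone, osteoclast precursors. On the way they read danger signals through Toll-like and interleukin-1 receptors, and the transcription factor NF-κB then switches on cytokines, chemokines and its own inhibitors. Periodontal tissue under orthodontic force is known for such a sterile inflammatory response.

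Many of the inflammatory genes described below are textbook NF-κB targets, and the DNA just before the start site of some of them carries letters the factor is known to bind. The motif GGGANNNNCC was searched on both strands, where it reads GGNNNNTCCC on the other, in the 250 bases before each start site in the RefSeq promoter table (GRCm38.p6). It was found for 5317 of 27025 genes (19.7%), for 12 of the 23 genes of a 28-gene NF-κB list that had a window (52.2%), for 5 of the 13 with a window that were past 1.5-fold higher in OTM (38.5%), and for 7 of the 10 that were within 1.5-fold (70.0%). The windows of Cxcl2 and Cxcl1, chemokines that call neutrophils, and of the cytokine Il6 are shown because these genes were among those past 1.5-fold and carry the motif. They do not stand for the higher genes as a group. Tnf, Il1b, Il1a, Icam1, Ptgs2, Bcl2a1b, Bcl2a1d and Clec4e, also past 1.5-fold higher, had a window without a match, and Nfkbiz had no window. All are on the plus strand of chromosome 5, at chr5:90903649-90903898, chr5:90890995-90891244 and chr5:30012864-30013113, and capitals mark bases inside a match.
Cxcl2: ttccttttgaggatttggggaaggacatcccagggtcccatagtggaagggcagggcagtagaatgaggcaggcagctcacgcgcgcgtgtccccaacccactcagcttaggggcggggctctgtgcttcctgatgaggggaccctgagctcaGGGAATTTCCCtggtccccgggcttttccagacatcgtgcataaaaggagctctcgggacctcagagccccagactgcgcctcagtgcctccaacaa
Cxcl1: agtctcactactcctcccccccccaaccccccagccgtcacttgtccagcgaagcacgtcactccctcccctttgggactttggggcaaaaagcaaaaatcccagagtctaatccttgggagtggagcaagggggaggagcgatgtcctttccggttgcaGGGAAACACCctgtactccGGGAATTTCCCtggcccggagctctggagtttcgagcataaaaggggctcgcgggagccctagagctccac
Il6: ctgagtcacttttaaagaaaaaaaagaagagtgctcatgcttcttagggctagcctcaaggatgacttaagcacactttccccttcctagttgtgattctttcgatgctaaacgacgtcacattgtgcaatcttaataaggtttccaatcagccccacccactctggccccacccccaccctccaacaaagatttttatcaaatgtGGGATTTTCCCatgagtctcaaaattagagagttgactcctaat

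In Cxcl2 and Il6 the capitals are 2 overlapping matches, the first starting 97 and 44 bases before the start site, and Cxcl1 had 3 matches, the first at 90 and the last at 70 bases. A match is a string of letters and not a measured binding site.

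The label was checked first. Vcan, a matrix proteoglycan typical of classical monocytes that the criteria did not use, stood at 115 CPM (a gene's UMIs summed over barcodes, scaled to the usual common total of that sum) in control and 196 CPM in OTM, against 24.3 and 95.4 CPM in all other kept barcodes. Those others include the barcodes that failed only the Saa3 criterion, where Vcan was higher than in the members, at 348 and 309 CPM. They held 42 of the 279 Vcan UMIs outside the members in control and 767 of 1416 in OTM. Vcan thus does not set the members apart from them. Ms4a6c, a monocyte membrane protein, stood at 1198 and 1528 CPM in the members, against 455 and 599 CPM in all other kept barcodes. Many of the sorted barcodes were neutrophil-rich (S100a8 and S100a9 at least 20% of UMIs), 1133 of 2835 kept in control and 885 of 2052 in OTM. With every barcode thinned to 1500 UMIs, Vcan had a UMI in 12.8% of members in control and 23.3% in OTM, against 0.618% and 0.791% of neutrophil-rich barcodes. Ccr2, Fn1 and Ly6c2 were in the criteria and can only be described. Ccr2 had a UMI in 52.8% and 49.8% of thinned members against 1.41% and 1.58% of neutrophil-rich barcodes. Ly6c2 separated the cells poorly, with a UMI in 77.7% and 83.3% of members and in 66.1% and 59.9% of neutrophil-rich barcodes. The median depth was 4062 UMIs for control members and 7044 for OTM members, and 3166 and 5335 for the neutrophil-rich barcodes.

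The submitters' labels name the sorted cells macrophages, so markers of settled macrophages and of other cells were summed in the members. The 8 resident macrophage markers summed to 36.9 CPM in control and 54.4 CPM in OTM, with Trem2 the most abundant and C1qc and Timd4 at 0 UMIs in OTM. In the other barcodes they summed to 207 and 122 CPM. Of the 8, 3 were capped by the C1q criterion, so the criteria in part set the members' sum. A wider macrophage list, led by Apoe and with 3 genes in the criteria, summed to 2066 and 4623 CPM in the members. It summed to 2044 and 3309 CPM elsewhere. Of 14 neutrophil markers the sum was 8264 CPM in control and 11989 CPM in OTM, with none at 0. In all other barcodes it was 236795 and 234567 CPM. S100a8, the most abundant, and S100a9 were capped by a criterion, which in part set this gap. They held 8983 and 6861 of the list's 25088 UMIs in control, and 8383 and 3936 of 19605 in OTM. Of the 9 neutrophil markers with at least 100 UMIs outside the criteria, 4 were past 1.5-fold higher in OTM, Lcn2, Mmp8, Il1r2 and Wfdc21, and 0 were lower, where 7.60% of all 3695 genes compared were higher and 8.96% lower. The 7 erythroid markers summed to 345 CPM in control and 106 CPM in OTM, with Hbb-bs the most abundant, Alas2 at 0 in both libraries and Hba-a2 at 0 in OTM. The 6 granulocyte progenitor markers summed to 228 and 421 CPM, led by Prtn3. Of the 6, 4 were capped by the azurophil granule criterion, so this sum was in part set by the selection. B cell, T and NK cell, dendritic cell, stromal, mast cell and osteoclast markers each summed to under 40 CPM in both libraries, with Zbtb46 at 0 in OTM and Calcr and Clec9a at 0 in both. The part of free RNA and other cells in the results below was not tested.

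A few members carried transcripts of other cells. Lyz2, the lysozyme gene of myeloid cells, was below 0.5% of UMIs in 6 control and 5 OTM members. 1 of them in each library held nearly all Jchain, the joining chain of secreted antibodies, with 1431 of 1440 UMIs in control and 726 of 733 in OTM. The Lyz2-poor members also held 18 of 41 UMIs of the cytotoxic granule gene Nkg7 in control, and in both libraries every UMI of the plasmacytoid dendritic cell gene Siglech, 5 in control and 3 in OTM. Monocyte and myeloid transcripts were found in them too, with Ms4a6c in 3 of the 6 control and 4 of the 5 OTM barcodes, Csf1r in 2 and 3, and Tyrobp in each. In OTM the Lyz2-poor members held 329 of 4180 Ly6c2 UMIs, and in control they held 47 of 193 UMIs of Ccl5. The libraries shared 6 barcode sequences, of which 3 were control members and 0 were members in both.

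Members made up 24.5% of kept barcodes in control (22.9 to 26.1%) and 11.1% in OTM (9.74 to 12.5%). With at least 200 genes per 1000 UMIs, another reading of the filter in the methods, they were 28.4% and 17.5%. These shares also depend on the Saa3 criterion. Among barcodes that met the other 8 criteria, 695 of 720 were Saa3-low in control (96.5%, 94.9 to 97.7%) and 227 of 553 in OTM (41.0%, 36.9 to 45.3%). The Saa3-high remainder was 25 barcodes in control and 326 in OTM. In control, 571 of 695 members (82.2%) had no Saa3 UMI at all. In OTM 45 of 227 (19.8%) had none, and the median member had 0.0337% Saa3. Near the line, 26 control and 28 OTM members lay between 0.25 and 0.5%, and 17 and 60 barcodes lay just above it, between 0.5 and 1%. Saa3 UMIs were also found in 2.47% and 26.3% of thinned neutrophil-rich barcodes, against 12.5% and 43.2% of thinned members.

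**Figure D1:**
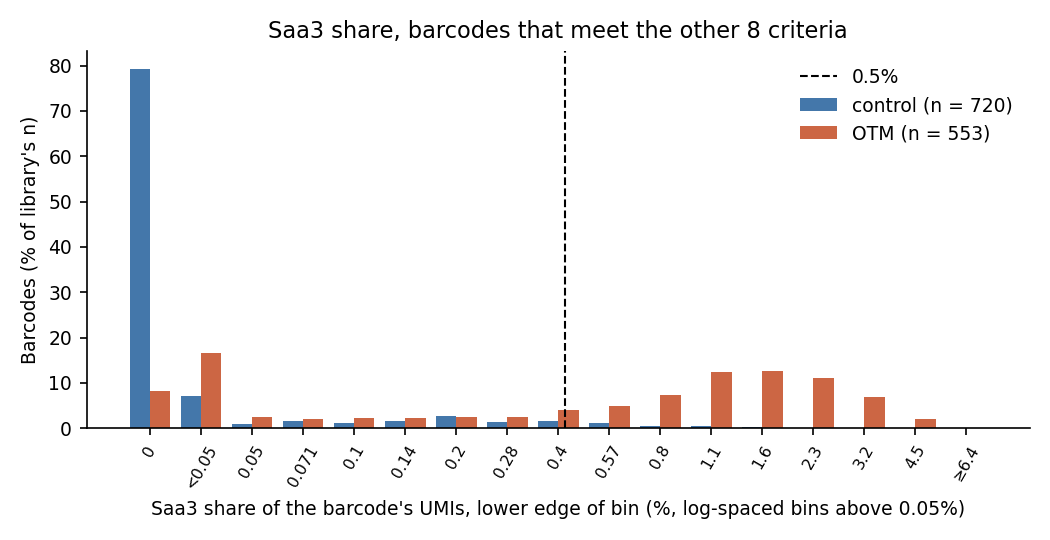
Share of each barcode's UMIs that came from Saa3 (x axis, %, log-spaced bins above 0.05%) among the 720 control and 553 OTM barcodes that met the other 8 criteria, as a percentage of each library's barcodes (y axis). The dashed line is the 0.5% threshold, with control piled at 0 and OTM spread on both sides.

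The comparison of OTM with control addressed how transcripts of these monocytes differ under force. With 1 library in each condition, force, library, mouse pool and depth cannot be told apart. It covered 3695 genes with at least 100 UMIs over both sums, leaving out the genes of the criteria. Of these, 281 were past 1.5-fold higher in OTM (7.60%) and 331 past 1.5-fold lower (8.96%), and the median ratio was 0.989. Each list below was read against these shares. With hemoglobin, ribosomal protein and mitochondrial genes left out of the totals, the counts were 213 higher and 436 lower. With members thinned to 1500 UMIs they were 166 higher (10.6%) and 132 lower (8.46%) of 1560, and with 400 UMIs as the minimum 118 and 56 of 1379, so which direction held more genes depended on these settings. Ribosomal protein genes took 24.7% of members' UMIs in control and 20.7% in OTM.

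Among genes with at least 200 UMIs, the 12 with the highest ratios included 5 cytokine and chemokine genes and Areg, a growth factor. Il1a, which encodes the alarm cytokine interleukin-1α, stood at 51.1 CPM in control and 344 CPM in OTM, a ratio of 6.73 (5.63 to 8.09). Tnf, the founding member of its cytokine family, went from 30.6 to 126 CPM, a ratio of 4.11 (3.20 to 5.31), from 93 control UMIs in 61 members. Ccl5, a chemokine for T cells and monocytes, went from 63.6 to 328 CPM, a ratio of 5.16 (4.37 to 6.11). The interferon-induced chemokine Cxcl10 went from 135 to 536 CPM, a ratio of 3.98. Tnfsf9, the ligand of the costimulatory receptor 4-1BB, went from 82.4 to 372 CPM, a ratio of 4.52. Areg, an epidermal growth factor receptor ligand, went from 97.8 to 338 CPM, a ratio of 3.45, and its UMIs sat in only 65 control and 51 OTM members. The acute-phase glycoprotein gene Lrg1 went from 50.4 to 301 CPM, a ratio of 5.97. Wfdc21, a whey acidic protein family gene, went from 74.1 to 392 CPM, a ratio of 5.29. In members without a Saa3 UMI the ratios were 3.59 for Lrg1, 2.46 for Wfdc21 and 2.24 for Tnfsf9, and with no Saa3 criterion they were 14.1, 11.3 and 3.18. With no Saa3 criterion Cxcl10 was at 2.35, Apoc1 at 7.57 and Dpep2 at 5.66, and Ccl5 was at 8.05 with monocyte genes at least 0.1%. Lrg1 and Wfdc21 were more abundant outside the members, with Lrg1 at 326 and 1053 CPM and Wfdc21 at 3599 and 3967 CPM in the other barcodes. Gm5483, of the stefin gene cluster, went from 22.4 to 114 CPM, but 1 OTM barcode held 76 of its 186 UMIs, and without the top barcode of each library it stood at 19.8 and 67.9 CPM. Its ratio of 5.08 became 1.46, within 1.5-fold, among members with S100a8 and S100a9 below 2%. The remaining 3 of the 12 highest were Ms4a8a (69.2 and 312 CPM), Apoc1, an apolipoprotein (26.4 and 106 CPM), and the dipeptidase gene Dpep2 (26.0 and 95.4 CPM).

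Genes at the other end were a mixed group. Ccl7, a ligand of Ccr2, went from 63.9 CPM to 9.17 CPM, a ratio of 0.144 (0.0788 to 0.243), and in control its 194 UMIs sat in 49 members. The heat shock gene Hspa1a went from 67.2 to 11.6 CPM, a ratio of 0.173. Vegfa, the vascular growth factor, went from 74.4 to 13.5 CPM, a ratio of 0.181 (0.111 to 0.280). Cxcr4, the receptor that holds cells in marrow through Cxcl12, went from 324 to 103 CPM, a ratio of 0.319 (0.269 to 0.376). The immediate early genes Fosb and Rhob went from 132 to 52.6 CPM and from 67.9 to 23.8 CPM. Without the top barcode of each library Rhob stood at 65.0 and 16.6 CPM. The transcriptional repressors Etv3 and Irf2bp2 had ratios of 0.406 and 0.395, and the lysosomal sulfatase gene Arsb and the ribokinase gene Rbks had ratios of 0.279 and 0.391. In members without a Saa3 UMI, Cxcr4 was at 0.558, Hspa1a at 0.298, Ccl7 at 0.0460 and Etv3 at 0.235, and after thinning to 1500 UMIs Arsb was at 0.163, Rhob at 0.178 and Etv3 at 0.165. Hba-a1 and Hbb-bs, hemoglobin genes of red cells, completed the 12 lowest at ratios of 0.228 and 0.333, and in the other barcodes they stood at 3265 and 2398 CPM in control and 1798 and 1826 CPM in OTM.

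**Figure D2:**
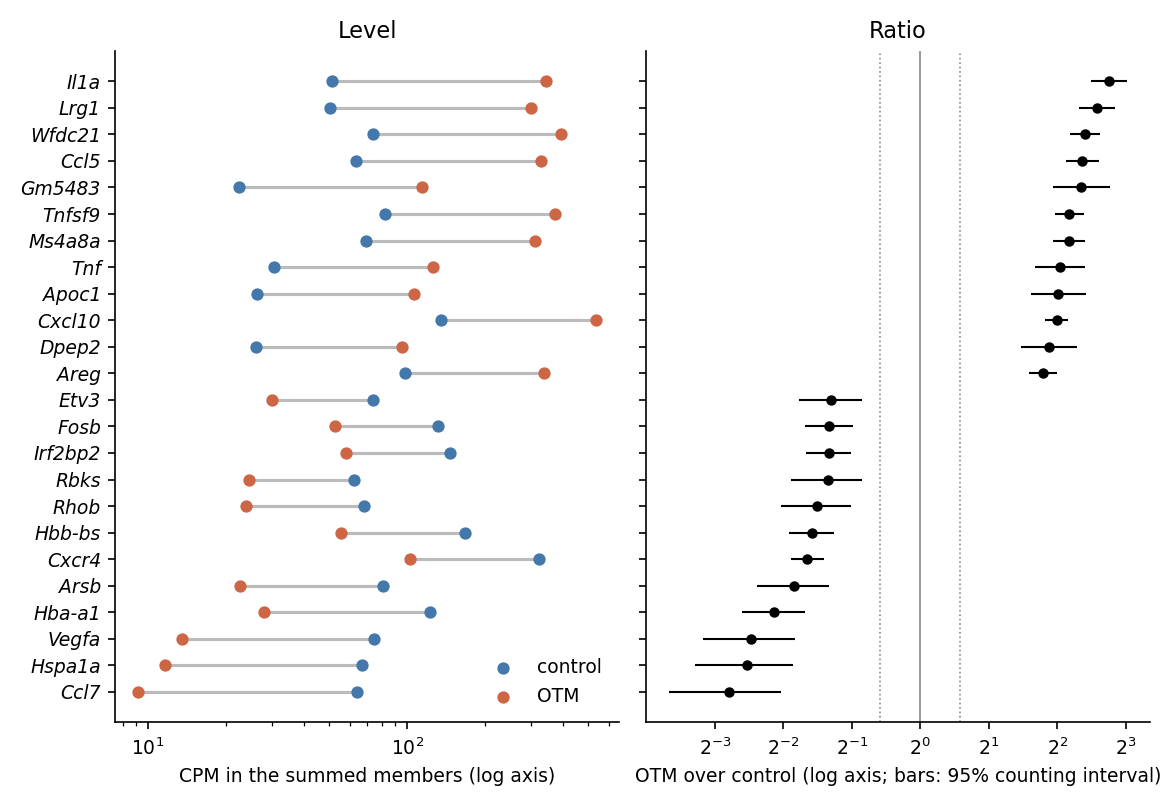
Levels (left, CPM on a log axis, 1 point per library) and OTM over control ratios (right, log axis, bars are 95% counting intervals, dotted lines 1.5-fold) of the 12 genes with the highest and the 12 with the lowest ratio among genes with at least 200 UMIs. The ratios run from 6.73 for Il1a to 0.144 for Ccl7.

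Barcodes that were not members are given beside these values. Here and below, the other barcodes are a mix whose make-up differed between the libraries. They include the Saa3-high barcodes, 25 in control and 326 in OTM. Of the Il1a UMIs in the other barcodes, the Saa3-high ones held 7 of 305 in control and 1189 of 2698 in OTM. Il1a stood at 26.6 CPM in control and 182 CPM in OTM in the other barcodes, Vegfa at 71.0 and 17.9 CPM, and Cxcr4 at 212 and 69.2 CPM. Ccl7 stood at 41.1 and 39.0 CPM there, and at 33.2 and 7.65 CPM in the Saa3-high, 245 and 90.2 CPM in the MHC-II-high and 47.2 and 0 CPM in the nonclassical neighbours. Ccl5 stood at 103 and 125 CPM in the other barcodes, and at 8.29 and 266 CPM, 159 and 303 CPM, and 21.5 and 323 CPM in the same neighbours, where the control Saa3-high value was 1 UMI. In the Saa3-high neighbour, Il1a stood at 58.1 and 479 CPM and Cxcr4 at 216 and 62.0 CPM. There Cxcl10 was the other way round, at 705 CPM in the 25 control barcodes and 258 CPM in OTM, and Tnfsf9 stood at 224 and 218 CPM. These differences between groups of barcodes were not tested.

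The NF-κB and inflammatory list, of 28 genes all with at least 100 UMIs, had 14 past 1.5-fold higher in OTM and 0 lower, with a median ratio of 1.49. The list summed to 25814 CPM in control and 49199.8 CPM in OTM, and to 15323 and 28479 CPM in the other barcodes. Among secreted products, Il1b, the main inflammatory interleukin-1, stood at 2071 and 6907 CPM, a ratio of 3.33 (3.23 to 3.44). Cxcl2 stood at 13474 and 26194 CPM, a ratio of 1.94 (1.92 to 1.97). Cxcl1 stood at 703 and 1441 CPM and Il6, which drives the acute-phase response, at 220.4 and 478 CPM, with ratios of 2.05 and 2.17. Among effectors, the adhesion molecule Icam1 (71.2 and 155 CPM), the prostaglandin synthase Ptgs2 (455 and 731 CPM), the inflammasome sensor Nlrp3 (291 and 469 CPM) and the fungal and necrotic cell receptor Clec4e (767 and 1457 CPM) were past 1.5-fold. The survival genes Bcl2a1b and Bcl2a1d were too, at ratios of 2.08 and 1.51, although these near-identical paralogs can share reads and their split is uncertain. Without the top barcode of each library Bcl2a1d stood at 146 and 214 CPM, inside 1.5-fold. Of the NF-κB subunits, Nfkb1, Rela, Relb and Nfkb2 stayed within 1.5-fold, at ratios of 1.13, 1.09, 1.41 and 1.46, and Rel is not reported here. Of the inhibitors, Nfkbiz was past 1.5-fold (1.63), Nfkbia lay just inside at 1.48, Tnfaip3 at 1.26 and Tnip1 at 0.996. Il10, the anti-inflammatory cytokine, stood at 61.9 and 60.5 CPM, while Il1rn, the interleukin-1 receptor antagonist, stood at 309 and 465 CPM, just past 1.5-fold. Without the top barcode of each library Il1rn stood at 304 and 454 CPM, just inside 1.5-fold.

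The list was also read in single members, where Cxcl2 weighs most, at 13474 of the 25814 CPM in control and 26194 of the 49199.8 CPM in OTM. The NF-κB list took a median of 2.17% of a member's UMIs in control (10th to 90th percentile 0.638 to 5.09%) and 4.82% in OTM (2.46 to 8.39%), so the groups overlapped. With members thinned to 1500 UMIs, Il1b had a UMI in 63.2% in control (59.5 to 66.8%) and 90.7% in OTM (86.2 to 94.2%), against 44.0% and 60.5% of neutrophil-rich barcodes. Il6 had one in 17.3% and 37.9% of members, and in 0.794% and 0.791% of neutrophil-rich barcodes. Il1a had one in 5.18% and 29.5% of members, against 2.47% and 9.15%. Tnf had one in 4.03% of control members, no more than the 4.24% of neutrophil-rich barcodes, cells that can express Tnf themselves, and in 14.1% of OTM members, against 8.59%.

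Of 17 chemokine and chemoattractant receptor genes with at least 100 UMIs, 10 were past 1.5-fold higher and 3 lower in OTM, with a median of 1.81. The higher genes were 5 ligands and 5 receptors. Among the ligands, Ccl4 stood at 871 and 2533 CPM (2.91), Ccl3 at 429 and 778 CPM (1.81) and Ccl9 at 866 and 1419 CPM (1.64), with Ccl5 and Cxcl10 given above. The receptors were Fpr1 (5.81), Fpr2 (2.75), C5ar1 (2.08), Ccrl2 (2.04) and Ccr1 (1.85). Fpr1 rested on 31 control UMIs. In the other barcodes Fpr1 stood at 124 and 392 CPM, Fpr2 at 197 and 294 CPM and C5ar1 at 306 and 717 CPM, against 10.2 and 59.3, 69.2 and 190.2, and 268 and 557 CPM in the members. With thinned barcodes, Ccl3 had a UMI in 25.3% of control and 41.4% of OTM members, against 34.9% and 39.3% of neutrophil-rich barcodes, so its control share was not above that of the neutrophil-rich barcodes. The formyl peptide receptors sense bacterial and mitochondrial peptides, and C5ar1 senses complement. Ccl2, the main Ccr2 ligand, stood at 860.1 and 1013 CPM, a ratio of 1.18, and Ccr2 itself, part of the criteria, at 522 and 484 CPM. The 3 lower genes were Ccl7, Cxcr4 and Cx3cr1, the receptor that marks the move toward nonclassical monocytes, at 43.5 and 14.1 CPM. Cx3cr1 had a UMI in 5.47% of thinned control members and 1.32% of OTM members.

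Genes linked to neutrophil-like monocytes, a marrow-derived form with granule proteins, were counted next. Of 9 with at least 100 UMIs, 5 were past 1.5-fold higher and 0 lower, with a median of 1.64. Chil3, a chitinase-like protein of inflammatory monocytes, stood at 2406 and 8006 CPM, a ratio of 3.33 (3.23 to 3.42). The siderophore-binding gene Lcn2 stood at 154 and 427 CPM and the haptoglobin gene Hp at 1301 and 2132 CPM, with Lrg1 and Wfdc21 given above. With thinned barcodes, Chil3 had a UMI in 73.7% and 86.3% of members and in 74.8% and 86.8% of neutrophil-rich barcodes, and Lrg1 in 6.19% and 23.8% against 52.1% and 78.4%, so neither was above the neutrophil-rich share. Lcn2 and Chil3 were also high in the other barcodes, at 3910 and 5673 CPM and at 4410.1 and 11377 CPM. Of the Chil3 UMIs there, the Saa3-high barcodes held 403 of 50531 in control and 54425 of 168801 in OTM. Saa3 itself stood at 268 and 1074 CPM in the members, a value that the criteria cap.

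Macrophage polarization genes gave 5 higher and 0 lower of 7, with a median of 1.97. Among them were Chil3, the decoy receptor and neutrophil marker Il1r2 (153 and 484 CPM, against 611 and 1121 CPM in the other barcodes), the Fc receptor Fcgr1 (143 and 282 CPM) and the scavenger receptor Msr1 (101 and 197 CPM, a ratio of 1.95). The 5 include genes assigned to both ends of the polarization scale. Of 8 general macrophage genes, 3 were higher and 0 lower: Apoe, a lipid carrier, at 1206 and 3583 CPM (2.97), the protease Lgmn at 114 and 241 CPM (2.11), and Trem2 at 18.4 and 42.2 CPM (2.29). Of 15 Fcγ and innate receptor genes, 6 were higher and 0 lower, and among them Fcgr4, a receptor usually tied to nonclassical monocytes, stood at 11.2 and 77.1 CPM, a ratio of 6.88 (4.68 to 10.4). Cd14, the lipopolysaccharide co-receptor, stood at 5106 and 8325 CPM.

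Of 16 identity genes of classical monocytes outside the criteria, 5 were past 1.5-fold higher and 1 lower, with a median of 1.20. Vcan (1.71), Ms4a4c (1.51), Clec4a1 (1.61), Cd14 (1.63) and Emb (1.54) were higher, while Lyz2 (0.941), Csf1r, the receptor that sustains monocytes (0.862), and Plac8 (1.21) lay within 1.5-fold. The lower gene was Klf4, a factor of monocyte differentiation, at 171 and 81.3 CPM, a ratio of 0.476 (0.390 to 0.577). Nonclassical monocyte genes leaned lower, with 1 higher (Fcgr4) and 3 lower of 8 and a median of 0.750. The lower ones were Cx3cr1, the integrin Itgal (92.9 and 44.6 CPM) and the ribonuclease Ear2 (514 and 308 CPM). Of 5 dendritic-like genes, 0 were higher and 1 was lower (Clec10a, 51.4 and 30.6 CPM), with a median of 0.683. For both lists the criteria had already removed barcodes with high values.

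Interferon-stimulated genes were counted only below the cap that 4 of them set. Of 19 others, 9 were higher and 1 lower, with a median of 1.46. Slfn2, which keeps immune cells quiescent, stood at 623 and 1477 CPM (2.37), the GTPase Gbp2 at 49.1 and 123 CPM and Ly6a at 34.3 and 71.5 CPM (2.09). For Ly6a, 1 OTM barcode held 40 of 117 UMIs, and without the top barcode of each library it stood at 30.7 and 47.4 CPM. The lower gene was Xaf1 (38.9 and 25.7 CPM), and the abundant members Ifi27l2a and Ifitm3 lay within 1.5-fold at ratios of 1.03 and 1.11. Of 12 MHC class I presentation genes, 2 were higher, H2-D1 (3921 and 6197 CPM) and H2-Q7 (64.6 and 153 CPM), and 0 lower, with a median of 1.24. H2 genes are alike in sequence, and reads can be split between them.

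Of 18 glycolysis and hypoxia genes, 5 were higher and 1 lower, with a median of 1.34. Of the 5, Mif stood at 78.1 and 112 CPM without the top barcode of each library, inside 1.5-fold. Ldha, which makes lactate, stood at 336 and 557 CPM (1.66), Pkm at 571 and 903 CPM (1.58) and the glucose transporter Slc2a1 at 33.6 and 51.4 CPM (1.53), and Vegfa, a hypoxia target, was the lower one. Immediate early and heat shock genes had 2 higher and 5 lower of 23, with a median of 0.964, or 1.08 in members without a Saa3 UMI. The lower were Fosb, Rhob, Hspa1a, Egr1 (132 and 83.8 CPM) and the stress factor Atf3 (177 and 81.9 CPM), and the higher were the chaperone Hspa8 (2042 and 3906 CPM) and the cytokine signalling brake Socs3 (264 and 411 CPM). Of 11 integrated stress response genes, 3 were higher, Ppp1r15a (2.05), Nupr1 (1.72) and Hspa5 (1.52), and Ddit3 was lower (0.604), with a median of 1.23, or 0.926 in members without a Saa3 UMI.

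For matrix and growth factor genes the count was 4 higher and 1 lower of 13, with a median of 1.20. They were Areg, Vcan, the neutrophil collagenase Mmp8 (168 and 379 CPM, against 634 and 1008 CPM in the other barcodes) and the adhesion protein Tgfbi (387 and 646 CPM) against Vegfa. Of 21 lysosomal genes, 3 were higher, Ctsl (1.82), Ctsc (1.56) and Lgmn, and 0 lower, with a median of 1.16. The lysosomal sulfatase gene Arsb, given above at a ratio of 0.279, was outside this list. The S100 and Crip1 list of 13 had 0 higher and 2 lower, with a median of 0.796. S100a4, a calcium-binding protein of motile cells, stood at 1500.4 and 897 CPM (0.598, 0.563 to 0.634) and Crip1 at 3677 and 2298 CPM (0.625, 0.602 to 0.649). Of 7 lipid handling genes, 1 was higher, Apoe, and 1 lower, with a median of 1.03 that became 0.972 once mitochondrial, ribosomal protein and hemoglobin genes left the totals. The apolipoprotein gene Apoc1, given above at 26.4 and 106 CPM, was outside this list. Osteoclast genes were few, with 1 of 5 higher, Acp5 (17.1 and 30.6 CPM), 0 lower and a median of 0.869.

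**Figure D3:**
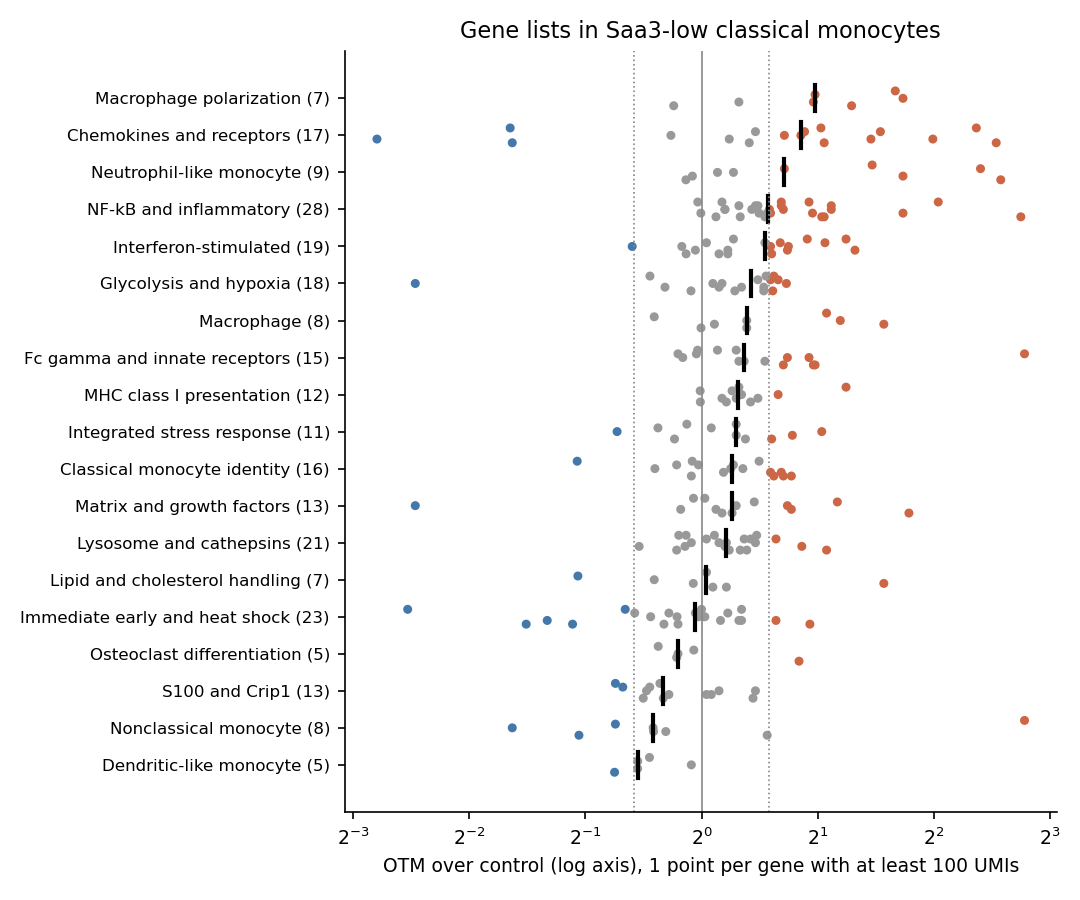
OTM over control ratios (x axis, log scale) of every list gene with at least 100 UMIs outside the criteria, 1 point per gene, orange past 1.5-fold higher, blue past 1.5-fold lower, grey between, with the list's median as a black bar and its gene count in parentheses. Medians run from 1.97 for macrophage polarization to 0.683 for dendritic-like monocyte genes.

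In the 571 control and 45 OTM members without any Saa3 UMI, Il1b stood at 1999 and 5639.6 CPM, Chil3 at 2187 and 5653 CPM, and S100a4 at 1524 and 907 CPM. Lrg1 stood at 48.9 and 175 CPM there. Along the Saa3 share the OTM barcodes climbed in Chil3, to 10234 CPM between 0.1 and 0.25% and 15441 CPM between 0.25 and 0.5%, then 15655 CPM between 0.5 and 1% and 23429.5 CPM above. In control Chil3 stood at 4005 CPM between 0.25 and 0.5% and 3192 CPM in the 8 barcodes above 1%. Lrg1 in control stood at 48.9 CPM with no Saa3 UMI, 44.4 CPM under 0.1%, 26.6 CPM between 0.1 and 0.25%, 118 CPM between 0.25 and 0.5%, 214 CPM between 0.5 and 1% and 253 CPM above. In OTM it went from 176 CPM under 0.1% to 717 CPM between 0.25 and 0.5% and 1248 CPM above 1%. Ly6c2, itself in the criteria, stood in OTM at 2486 CPM with no Saa3 UMI, 3052 CPM under 0.1%, 2061 CPM between 0.1 and 0.25%, 1587 CPM between 0.25 and 0.5%, 2177 CPM between 0.5 and 1% and 1432 CPM above. In the OTM bins on either side of the 0.5% line, Chil3 stood at 15441 and 15655 CPM, Lrg1 at 717 and 673 CPM and Il1b at 8189 and 8712 CPM.

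**Figure D4:**
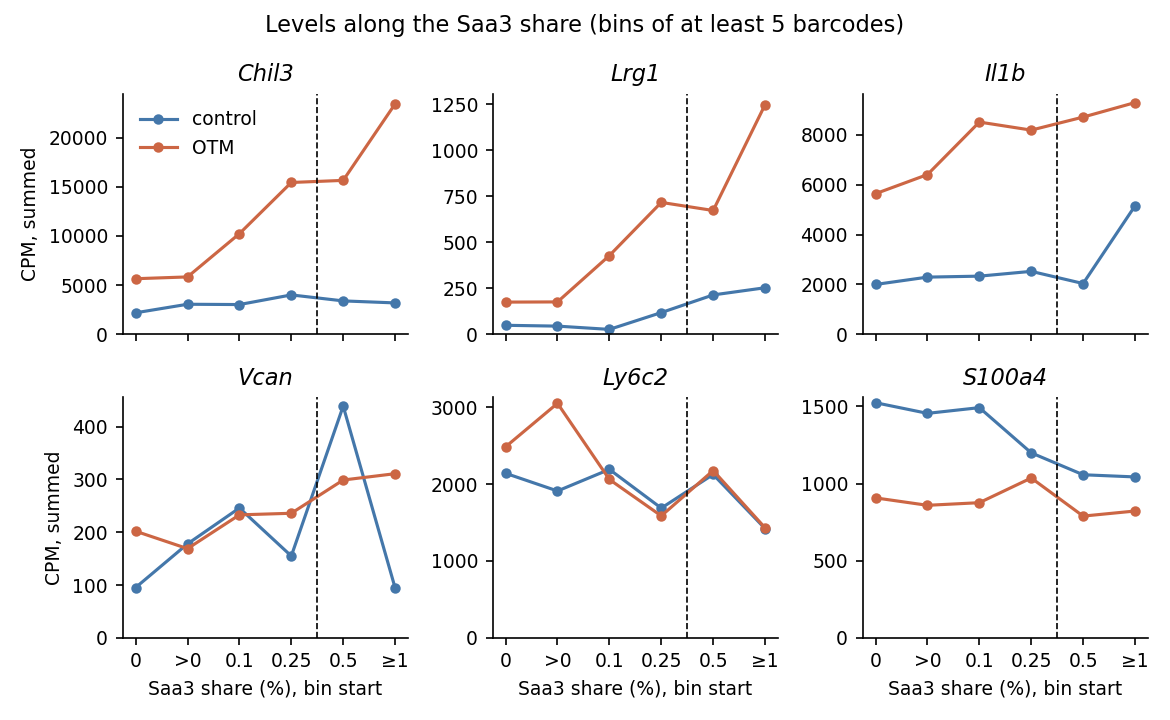
CPM of summed UMIs (y axis, from 0) in bins of the Saa3 share (x axis, %) for 6 genes, control in blue and OTM in orange, with the threshold dashed. Chil3 climbs along the Saa3 share in OTM, control Lrg1 is higher only in the bins from 0.25%, and S100a4 is lower in OTM in each bin, while the 2 control bins above the threshold hold 17 and 8 barcodes.

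Neighbouring barcodes were those that failed a single criterion. Against the Saa3-high barcodes, 2735 genes could be compared in both libraries, and 28 were past 1.5-fold higher in Saa3-low members in both (1.02%) and 12 past 1.5-fold lower (0.439%). Jchain led the higher side through the 2 barcodes described above, and without them it stood at 2.98 and 4.31 CPM. With TMM scaling the counts were 18 and 11, and the log2 ratios moved by 0.17 in control and -0.16 in OTM. Crip1 stood at 3677 CPM against 2032 CPM in control and 2298 CPM against 1397 CPM in OTM. The AP-1 subunit Jun stood at 210.5 against 82.9 CPM and 168 against 89.4 CPM. The Notch-modifying enzyme Lfng, the class II chaperone H2-DMb1 and the methionine adenosyltransferase Mat2a were past 1.5-fold in both, but on 4, 9 and 10 UMIs in the control Saa3-high barcodes. Their control intervals held 1, from 0.872 to 8.38, 0.844 to 3.57 and 0.883 to 3.45. On the lower side Wfdc21 stood at 74.1 against 166 CPM in control and 392 against 1191 CPM in OTM. Fpr2 stood at 69.2 against 174 CPM and 190.2 against 377 CPM, Vcan at 115 against 348 CPM and 196 against 309 CPM, and the metallothionein Mt1 at 2539 against 3973 CPM and 1882 against 3012 CPM. Map1lc3a, of the autophagy machinery, was the last of 5 lower genes with enough UMIs to be named, with a control interval of 0.330 to 1.10. The control side of this comparison rests on 25 barcodes with 120562 UMIs.

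Against barcodes with high MHC class II, 121 in control and 30 in OTM, 1932 genes were compared, with 110 higher (5.69%) and 36 lower (1.86%) in the members. After Jchain the highest were Hopx (251 against 59.5 CPM and 437 against 84.9 CPM), the eosinophil-associated ribonucleases Ear1 and Ear2, paralogs that may share reads, Chil3 (2406 against 570.1 CPM and 8006 against 2282 CPM) and Mmp8. The lowest were the class II loading genes H2-DMb1 (121 against 810 CPM and 114 against 674 CPM) and H2-DMa, which are functionally tied to the criterion, with Tmem176b, the G-protein regulator Rgs1, Aif1 and Bcl2a1d. Rgs1 stood at 123 against 449 CPM and 127 against 653 CPM.

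Against nonclassical barcodes, 61 in control and 14 in OTM, 1837 genes were compared, with 82 higher (4.46%) and 43 lower (2.34%) in the members. With TMM scaling, which moved the log2 ratios by 0.12 in control and 0.25 in OTM, the counts were 155 higher and 18 lower. Il6 stood at 220.4 against 77.3 CPM and 478 against 132 CPM, S100a10 at 1039 against 442 CPM and 1067 against 469.6 CPM, and Lgals1, a galectin, at 953 against 434 CPM and 743 against 161 CPM. Gatm and Mmp8 were also among the highest, after Jchain. The lowest were Gngt2 (304 against 1396 CPM and 265 against 1159 CPM), the peptidoglycan-binding gene Pglyrp1 (278 against 657 CPM and 209 against 704 CPM), Marcks, AF251705 and the paralogs Bcl2a1a and Bcl2a1d. The OTM side rests on 68137 UMIs.

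**Figure D5:**
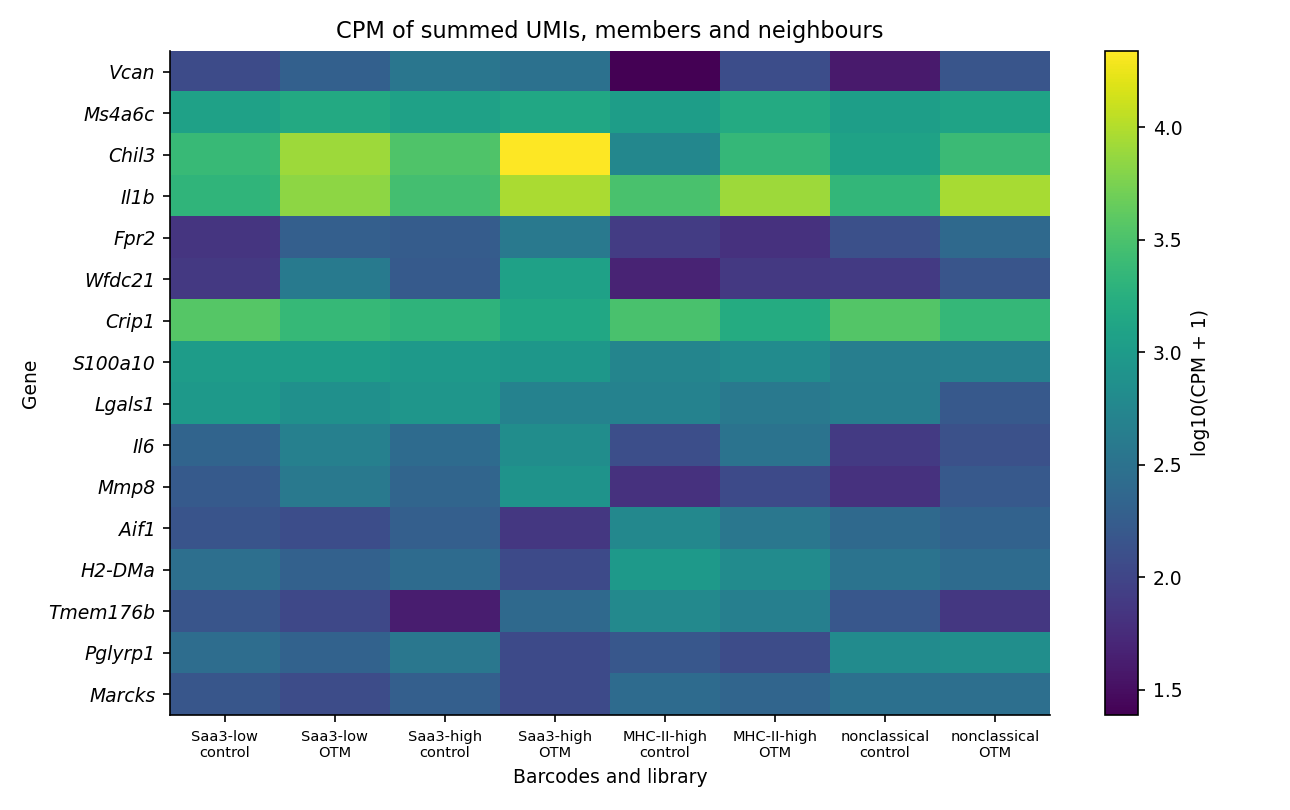
Levels (colour, log10 of CPM + 1) of 16 genes in the members and the 3 neighbouring groups of barcodes, 1 column per group and library. Aif1, H2-DMa and Tmem176b are brightest in the MHC-II-high columns and Pglyrp1 and Marcks in the nonclassical ones.

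Members also differed among themselves. After thinning to 1500 UMIs, 58 of 952 genes in control and 65 of 974 in OTM with a mean of at least 0.2 UMIs had a variance at least 2 times their mean. Jchain came first in each library through a single barcode that held 97.3% and 98.2% of its thinned UMIs. Of the 10 most variable genes, 6 were common to both libraries: Jchain, Cxcl2, Cxcl1, Ccl4, the cytoskeletal actin gene Actb and the protease inhibitor Slpi. Cxcl2 had a variance 17.9 times its mean in control, with a median of 14 UMIs and a 10th to 90th percentile of 2 to 47, and 15.8 times in OTM, with a median of 36 and percentiles of 11 and 73. Ccl4 had a median of 0 UMIs in control and 1 in OTM, and 90th percentiles of 4 and 11. Chil3 was second in OTM (20.7 times, median 6 UMIs, 90th percentile 35.4), and Apoe was sixth (13.3 times, median 3, 90th percentile 18). The remaining top genes were Cd74, Mt1, G0s2 and Wfdc17 in control and S100a8 and Malat1 in OTM, of which Cd74 and S100a8 were capped by the criteria.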

How the data were processed

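The deposited values were raw UMI counts per gene and barcode, which the authors made from 10x Genomics 3′ v2 libraries (Cell Ranger 3.0.0 and mm10 in the submitters' processing notes). Seurat 3.0.0 is also named there. The deposited tables held 2863 control and 2058 OTM barcodes, fewer than the cell numbers the study states. Members, neighbours and gene lists were chosen with earlier results of these data known. The gene minimum was read as 200 genes per barcode. UMIs were summed over the members of each library (3035808 in control and 1635230 in OTM), levels are CPM of these sums, and ratios have exact conditional binomial intervals. A gene needed 100 UMIs to be compared and 200 to stand among the highest or lowest ratios. Genes named are the 12 highest and 12 lowest ratios, the members of each list with the most UMIs or past 1.5-fold, up to 6 per direction for each neighbour, and the 10 most variable. Il10, Tnip1, the NF-κB subunits given above and genes of single barcodes were named beyond that, after their values were seen. Neighbours failed 1 criterion only. Members were thinned to 1500 UMIs for shares and variances. Scrublet (scanpy 1.11.5) marked 1 control and 6 OTM barcodes as doublets, of which 0 were members, so doublets were in effect not removed. TMM factors came from edgeR 4.0.16. Intervals came from scipy 1.17.1 under Python 3.11.15. The ratios with their intervals and the variance over mean were tested on simulated counts. For the ratios these were Poisson counts, without the spread between members seen here. The criteria, neighbours, thinning and doublet calls were not simulated. Alternatives covered the thresholds, the scaling and the UMI minimum. Immunoglobulin genes were not analysed here, and a few list members are not reported here.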

Additional observations from a re-analysis of the deposited data

How the results depend on the processing

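No paired analysis was possible because each condition was 1 library with no replicate number, and for the same reason no library could be left out. Across 15 alternatives, of which leaving out Lyz2-poor members, dropping the Saa3 criterion and keeping only members without a Saa3 UMI were chosen after seeing the data, 0 of 360 ratios of the named genes reversed, and 37 of them moved beyond their counting interval. Scrublet removed 0 members and the UMI minimum does not enter a ratio, so those alternatives could not move these ratios. TMM scaling and the changed totals multiply every ratio by a common factor, too near 1 to reverse any of them. The named genes were also the most extreme ratios of the same data, so a reversal was unlikely from the start. Medians near 1 crossed it for 3 lists. Immediate early and heat shock went from 0.964 to 1.08 and integrated stress response from 1.23 to 0.926 in members without a Saa3 UMI. Lipid handling went from 1.03 to 0.999 with Saa3 below 1%, 0.972 once mitochondrial, ribosomal protein and hemoglobin genes left the totals, 0.982 with 50 UMIs as the minimum and 0.956 without the Saa3 criterion. Among the gene ratios, Gm5483 went to 1.46 with S100a8 and S100a9 below 2%. Without a Saa3 UMI, Lrg1 was at 3.59, Wfdc21 at 2.46, Tnfsf9 at 2.24 and Cxcr4 at 0.558. Without the Saa3 criterion, Lrg1 was at 14.1, Wfdc21 at 11.3 and Cxcl10 at 2.35, and 584 genes were lower in OTM. Ccl5 was at 6.45 without Lyz2-poor members. Members were 28.4% of control and 17.5% of OTM barcodes with at least 200 genes per 1000 UMIs, and 9.70% and 14.0% of OTM with Saa3 below 0.25% and 1%, the latter with 74 genes higher than in Saa3-high barcodes. Counts of genes depended on the UMI minimum and on thinning. With 50 UMIs as the minimum they were 451 higher and 684 lower in OTM, 96 and 33 against Saa3-high, 205 and 65 against MHC-II-high and 173 and 98 against nonclassical barcodes. With 400 UMIs they were 118 and 56, 5 and 1, 32 and 12, and 15 and 15. Thinned to 1500 UMIs they were 166 and 132, 14 and 5, 31 and 12, and 19 and 8. TMM scaling gave 18 genes higher than in Saa3-high barcodes, and 155 higher and 18 lower against nonclassical barcodes. Thinned to 1000 UMIs, 37 control and 42 OTM genes had a variance at least 2 times their mean. Depth limits genes under 100 UMIs and the 25 control Saa3-high and 14 OTM nonclassical barcodes.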
